A study of Homo sapiens with 6 samples.

Results

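The 9 genes described here are all the genes that the light-strand transcript of human mitochondrial DNA encodes: the mRNA gene MT-ND6 and the tRNA genes MT-TP, MT-TE, MT-TS1, MT-TY, MT-TC, MT-TN, MT-TA and MT-TQ. They were taken by gene name from the deposited table of 60675 gene identifiers and joined by identifier to the counts of each of the 6 libraries. The other 28 of the 37 mitochondrial genes, which are 12 mRNA genes, 2 rRNA genes and 14 tRNA genes, lie on the opposite strand and are called heavy-strand genes below.

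RNA bound by J2, an antibody against double-stranded RNA, was sequenced from OCI-AML2, a human acute myeloid leukaemia cell line, after transduction with short hairpin RNA. The hairpin was directed against SUPV3L1, also called SUV3, in 3 libraries and against PNPT1, which encodes PNPase, in 3 libraries, and the series' design text calls the libraries of a group biological replicates. Cells without a knockdown and input RNA were not analysed here, so each value is a level in J2-bound RNA and each comparison sets SUPV3L1 knockdown against PNPT1 knockdown. The sample titles carry a number for each library whose meaning the labels do not state, so it is unknown whether 1 hairpin or several were used against each gene.

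Human mitochondrial DNA is transcribed from both strands into long RNAs that run through nearly all of the circle, and tRNAs placed between the other genes are cut out of them. The light-strand transcript starts in the non-coding control region and meets MT-TP first, then MT-TE and MT-ND6, and later MT-TS1, the cluster of MT-TY, MT-TC, MT-TN and MT-TA, and MT-TQ. Most of its length is antisense to heavy-strand genes and is normally degraded by SUPV3L1, an RNA helicase, together with PNPT1, a 3′ to 5′ exoribonuclease. Where antisense RNA persists it can pair with heavy-strand RNA and form mitochondrial double-stranded RNA, the kind of RNA that J2 binds. MT-ND6 encodes a membrane subunit of respiratory complex I, and the 8 tRNAs carry proline, glutamate, serine, tyrosine, cysteine, asparagine, alanine and glutamine.

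The sequences of 6 of the tRNA genes are shown because some stand alone on their strand and some share or nearly share a border with another gene, which bears on how their reads can be counted. All lie on the minus strand of the mitochondrial chromosome of GRCh38, and the letters are the GENCODE 29 transcript sequences in DNA letters, 5′ to 3′. Capitals mark the anticodon, located as the 3 bases inside a stem in which 5 of 5 bases could pair.
MT-TP (proline, chrM:15956-16023): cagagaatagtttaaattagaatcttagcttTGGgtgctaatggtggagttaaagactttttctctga
MT-TS1 (serine, chrM:7446-7514): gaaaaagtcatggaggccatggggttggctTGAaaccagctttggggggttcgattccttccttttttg
MT-TY (tyrosine, chrM:5826-5891): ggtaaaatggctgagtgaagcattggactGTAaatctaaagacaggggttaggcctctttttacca
MT-TC (cysteine, chrM:5761-5826): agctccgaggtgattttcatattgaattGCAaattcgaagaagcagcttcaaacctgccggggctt
MT-TN (asparagine, chrM:5657-5729): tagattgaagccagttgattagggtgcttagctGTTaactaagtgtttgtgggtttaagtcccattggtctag
MT-TQ (glutamine, chrM:4329-4400): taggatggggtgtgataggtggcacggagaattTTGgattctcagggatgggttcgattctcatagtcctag
MT-TP, MT-TS1 and MT-TQ stand alone on their strand, with 1213, 1554 and 1186 bases to the nearest gene read in the same direction. The other tRNA genes are packed: MT-TY and MT-TC share 1 base, MT-TN lies 1 base from MT-TA (chrM:5587-5655), and MT-TE (chrM:14674-14742) touches MT-ND6 (chrM:14149-14673) with 0 bases between them. That border is shown next, as the last 20 bases of MT-TE and, in capitals, the first 20 bases of MT-ND6, because reads that cross it belong to both genes.
MT-TE/MT-ND6 junction (chrM:14654-14693): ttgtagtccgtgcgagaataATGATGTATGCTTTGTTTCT
The 9 genes span 1077 bases, of which the tRNA genes hold 552. MT-ND6 is 35.6% G and 7.05% C on its coding strand, whereas the 12 heavy-strand mRNA genes are 6.28% to 16.2% G and 29.5% to 36.0% C. The light-strand tRNA genes are 23.5% to 36.1% G, against 10.3% to 19.1% for the heavy-strand tRNA genes.

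Because light-strand and heavy-strand genes overlap or face each other, the direction in which reads were counted matters for every value that follows. The labels name a directional library kit but do not give the counter's strand setting, which was read from the counts. Of 12 genes that lie wholly inside exons of genes on the other strand, with at least 200 exon bases and a mean above 0.5 FPKM (fragments scaled to gene length and sequencing depth), 12 had counts, with a median of 23.2 counts per FPKM and kilobase. Of 33 genes wholly inside exons of a gene on the same strand, 26 had 0 counts in all libraries. Genes with no exon overlap, 6839 in number, had a median of 13.2 counts per FPKM and kilobase, and ACTB, the gene of beta-actin, had 7356 to 25235 counts per library. A gene on the other strand thus did not make reads ambiguous, a gene on the same strand did, and reads were counted in the direction of the gene. The counts of the 9 genes are therefore counts of reads in the light-strand direction. Light-strand RNA antisense to heavy-strand genes has no gene to be counted for. The check does not measure how many heavy-strand reads were given the wrong direction, and their part in these counts was not tested. Over all libraries the light-strand tRNA genes had from 1 count for MT-TN to 1466 for MT-TP. The heavy-strand mRNA genes had from 26901 for MT-ATP8 to 508091 for MT-CO1.

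MT-ND6 had the most counts of the light-strand genes, and its level varied 7.59-fold among the 6 libraries without separating the knockdowns. It had 8035, 50000 and 46303 counts in the SUPV3L1 knockdown libraries 1, 2 and 3, against 20590, 55145 and 3063 in the PNPT1 knockdown libraries. In CPM, which are counts divided by the TMM-adjusted library size, these were 661, 4716 and 5014 in SUPV3L1 knockdown, against 2049, 4815 and 784 in PNPT1 knockdown. Libraries 2 and 3 of SUPV3L1 knockdown and library 2 of PNPT1 knockdown were high, the 2 lowest libraries came from different knockdowns, and the groups overlapped. The means were 3463 ± 2432 CPM in SUPV3L1 knockdown, against 2550 ± 2062 CPM in PNPT1 knockdown (SD, n = 3 each), a log2 fold change of 0.44 ± 0.81 (SE) with an adjusted p of 0.936 by edgeR (quasi-likelihood test, Benjamini-Hochberg adjustment). It was 1.28 when PNPT1 knockdown library 2 was left out and 0.0081 when PNPT1 knockdown library 3 was left out.

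Over all 13275 genes that passed the expression filter, this test called 0, which is 0% at an adjusted p under 0.05, and 543 genes, 4.09%, had an unadjusted p under 0.05. DESeq2 called 18 of the same genes. Of the 9 light-strand genes 7 passed the filter, and 0 of these were called by either tool, although DESeq2 gave no p for MT-TY. None of the 7 had an unadjusted p under 0.05, and for none did the groups stand apart, against 1136 genes, 8.56%, whose groups did not overlap among all genes tested. MT-ND6 and MT-TP had log2 fold changes above 0 and the other 5 below 0, with a median of -0.26, against a median of 0.0094 over all genes tested. The 12 heavy-strand mRNA genes were all above 0, with a median of 0.54, 3 of 12 with groups that did not overlap and 0 called. Without SUPV3L1 knockdown library 3, 7 of these 12 were above 0 with a median of 0.32, and without PNPT1 knockdown library 3 the median was 0.27. Scaled to mitochondrial counts instead, 10 of these 12 were below 0, and 12 of 12 were above the median of all genes.

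MT-TP, the gene nearest the start of the transcript, had the most counts of the 8 tRNA genes, although its mean FPKM was the lowest of them. It had 16.9, 35.1 and 23.6 CPM in SUPV3L1 knockdown, against 22.8, 37.1 and 4.35 CPM in PNPT1 knockdown, from 205, 372 and 218 counts against 229, 425 and 17. PNPT1 knockdown library 3 was low and the other 5 libraries were mixed between the groups. The means were 25.2 ± 9.22 CPM in SUPV3L1 knockdown, against 21.4 ± 16.4 CPM in PNPT1 knockdown (SD, n = 3 each), a log2 fold change of 0.21 ± 0.60 with an adjusted p of 0.957 (edgeR quasi-likelihood, Benjamini-Hochberg). It was -0.26 without PNPT1 knockdown library 3.

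MT-TE, which follows MT-TP and borders MT-ND6, had 12, 6 and 27 counts in SUPV3L1 knockdown, against 6, 49 and 2 counts in PNPT1 knockdown. In the same libraries the gene it touches, MT-ND6, had 3063 to 55145 counts. MT-TE averaged 1.49 ± 1.26 CPM in SUPV3L1 knockdown, against 1.80 ± 2.15 CPM in PNPT1 knockdown (SD, n = 3 each), and SUPV3L1 knockdown library 3 and PNPT1 knockdown library 2 were the highest of their groups. The log2 fold change was -0.36 ± 0.91 with an adjusted p of 0.955 by edgeR (quasi-likelihood test, Benjamini-Hochberg adjustment). Without PNPT1 knockdown library 2 the gene did not pass the filter.

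MT-TS1, which decodes serine codons and whose 3′ end touches the end of MT-CO1 on the other strand, showed a wide spread within each knockdown. It had 1.32, 3.02 and 24.5 CPM in SUPV3L1 knockdown, against 4.58, 26.6 and 2.30 CPM in PNPT1 knockdown, from 16, 32 and 226 counts against 46, 305 and 9. A single library of each group was high, and the other libraries lay below 5 CPM. The means were 9.60 ± 12.9 CPM in SUPV3L1 knockdown, against 11.2 ± 13.4 CPM in PNPT1 knockdown (SD, n = 3 each), with a log2 fold change of -0.26 ± 1.05 and an adjusted p of 0.969 (edgeR quasi-likelihood, Benjamini-Hochberg). It was -2.39 without SUPV3L1 knockdown library 3 and 1.41 without PNPT1 knockdown library 2.

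The same 2 libraries were high for MT-TY and MT-TA, the outer genes of the tRNA cluster. MT-TY had 0.658, 1.13 and 6.06 CPM in SUPV3L1 knockdown, against 0.498, 14.1 and 0.256 CPM in PNPT1 knockdown, from 8, 12 and 56 counts against 5, 161 and 1. MT-TA had 1.48, 1.98 and 11.2 CPM in SUPV3L1 knockdown, against 1.89, 15.5 and 0.256 CPM in PNPT1 knockdown, from 18, 21 and 103 counts against 19, 178 and 1. From the lowest to the highest library MT-TA varied 60.7-fold and MT-TY 54.9-fold, with 1 count in the lowest. The log2 fold changes were -0.98 ± 1.23 for MT-TY, with an adjusted p of 0.912, and -0.33 ± 1.09 for MT-TA, with an adjusted p of 0.963 (edgeR quasi-likelihood, Benjamini-Hochberg). Each changed direction when a library was left out: MT-TY was -2.49 without SUPV3L1 knockdown library 3 and 2.61 without PNPT1 knockdown library 2, and MT-TA was -1.80 and 1.98 in the same 2 cases.

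MT-TN and MT-TC, the inner genes of the cluster, were almost without counts. MT-TN had 1 count, in SUPV3L1 knockdown library 3, and MT-TC had 2, of which 1 was in SUPV3L1 knockdown library 3 and 1 in PNPT1 knockdown library 2. The other libraries had 0 counts, and a count of 0 allows up to 3 counts, which are 0.247 to 0.768 CPM depending on the library. Neither gene passed the filter, and with so few counts no difference between the knockdowns was detectable.

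MT-TQ, the last gene of the transcript, was even among the SUPV3L1 knockdown libraries and uneven among the PNPT1 knockdown libraries. It had 6.17, 9.15 and 6.50 CPM in SUPV3L1 knockdown, against 7.17, 15.02 and 0 CPM in PNPT1 knockdown, from 75, 97 and 60 counts against 72, 172 and 0. The means were 7.27 ± 1.63 CPM in SUPV3L1 knockdown, against 7.40 ± 7.51 CPM in PNPT1 knockdown (SD, n = 3 each). The log2 fold change of -0.068 ± 0.90 had an adjusted p of 0.988 (edgeR quasi-likelihood, Benjamini-Hochberg), and it was 0.90 without PNPT1 knockdown library 2 and -0.61 without PNPT1 knockdown library 3.

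**Figure D1:**
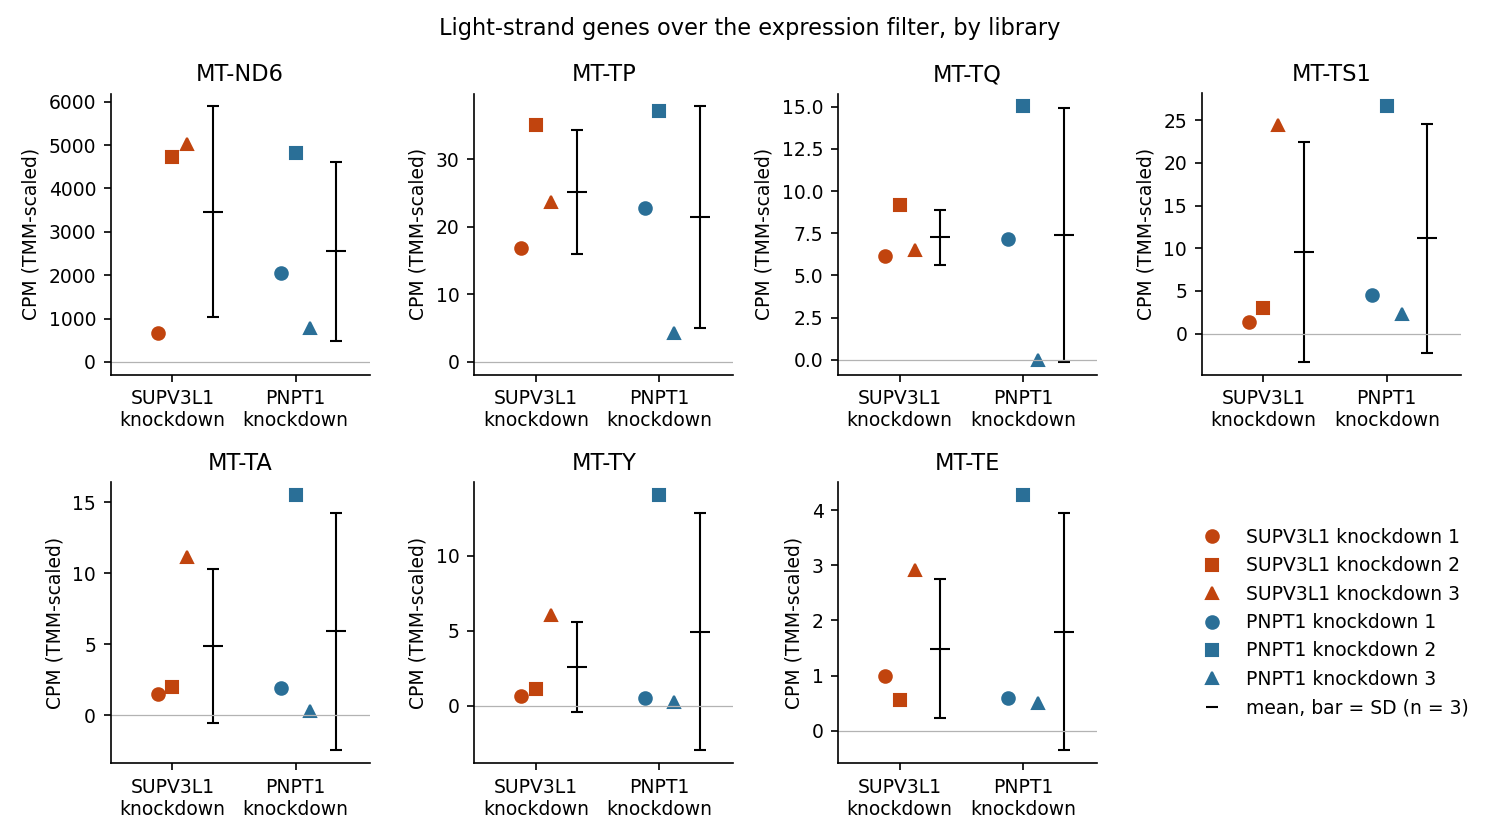
CPM after TMM scaling (y axes, linear, a different range in each panel) of the 7 light-strand genes that passed the filter, with 1 point per library, SUPV3L1 knockdown left of PNPT1 knockdown, and the mean with its SD (n = 3) beside each group. MT-TS1, MT-TA, MT-TY and MT-TE were highest in PNPT1 knockdown library 2 and SUPV3L1 knockdown library 3, and the groups overlap in every panel.

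The light-strand tRNA genes fell into 2 patterns across the libraries, and both patterns crossed the knockdowns. MT-TA, MT-TY, MT-TS1 and MT-TE followed each other, with Pearson's r of log2 CPM from 0.888 to 0.965 over the 6 pairs of these genes. MT-TP and MT-TQ, the first and the last gene of the transcript, followed each other with r = 0.977, and between these 2 genes and the other 4 the 8 values of r ran from 0.452 to 0.732. MT-ND6 had r of 0.559 to 0.777 with the 6 tRNA genes. These values describe 6 libraries that share their scaling and their depth, and PNPT1 knockdown library 3, which had the fewest counts, was the lowest or next to the lowest library for each of these 7 genes.

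Shares of the light-strand tRNA counts, which do not depend on library scaling, restate these patterns from the same counts and are no separate evidence for them. MT-TE, with 102 counts in all, is in neither share, and the 2 shares nearly complement each other. MT-TA, MT-TY and MT-TS1 together held 12.6%, 12.04% and 55.6% of the light-strand tRNA counts in SUPV3L1 knockdown, against 18.6%, 49.9% and 36.7% in PNPT1 knockdown. MT-TP and MT-TQ together held 83.8%, 86.9% and 40.2% in SUPV3L1 knockdown, against 79.8%, 46.2% and 56.7% in PNPT1 knockdown. SUPV3L1 knockdown library 3 and PNPT1 knockdown library 2 were the libraries in which the first share exceeded 40% and the second fell below 50%. The shares of PNPT1 knockdown library 3 rest on 30 counts, with Wilson 95% intervals of 21.9% to 54.5% and 39.2% to 72.6%.

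In counts per length, MT-ND6 stood far above the tRNA genes, which are 66 to 73 bases long against 525 bases for MT-ND6. Reads that reach from so short a gene into a neighbour can be counted for neither, so these values may understate the tRNA genes. In the deposited FPKM, given below, MT-TS1 lay above MT-ND6 in 2 of 6 libraries. The mean over the 6 libraries was 5726 CPM per kilobase of gene for MT-ND6, 343 for MT-TP, 151 for MT-TS1, 102 for MT-TQ, 78.0 for MT-TA, 57.2 for MT-TY, 23.8 for MT-TE, 0.494 for MT-TC and 0.247 for MT-TN. MT-ND6 did not overlap any tRNA gene in its range over the libraries, whereas the ranges of neighbours in the order from MT-TP to MT-TE overlapped. These counts per length did not fall steadily with distance: MT-TE starts 1281 bases and MT-ND6 1350 bases after the start of MT-TP, MT-TS1 starts 8509 bases after it, and MT-TQ starts 11623 bases after it. MT-ND6 held 96.0% to 99.0% of the light-strand counts of a library. MT-TP, MT-TE and MT-ND6 together held 99.1% ± 0.541 in SUPV3L1 knockdown, against 99.2% ± 0.561 in PNPT1 knockdown (SD, n = 3 each).

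**Figure D2:**
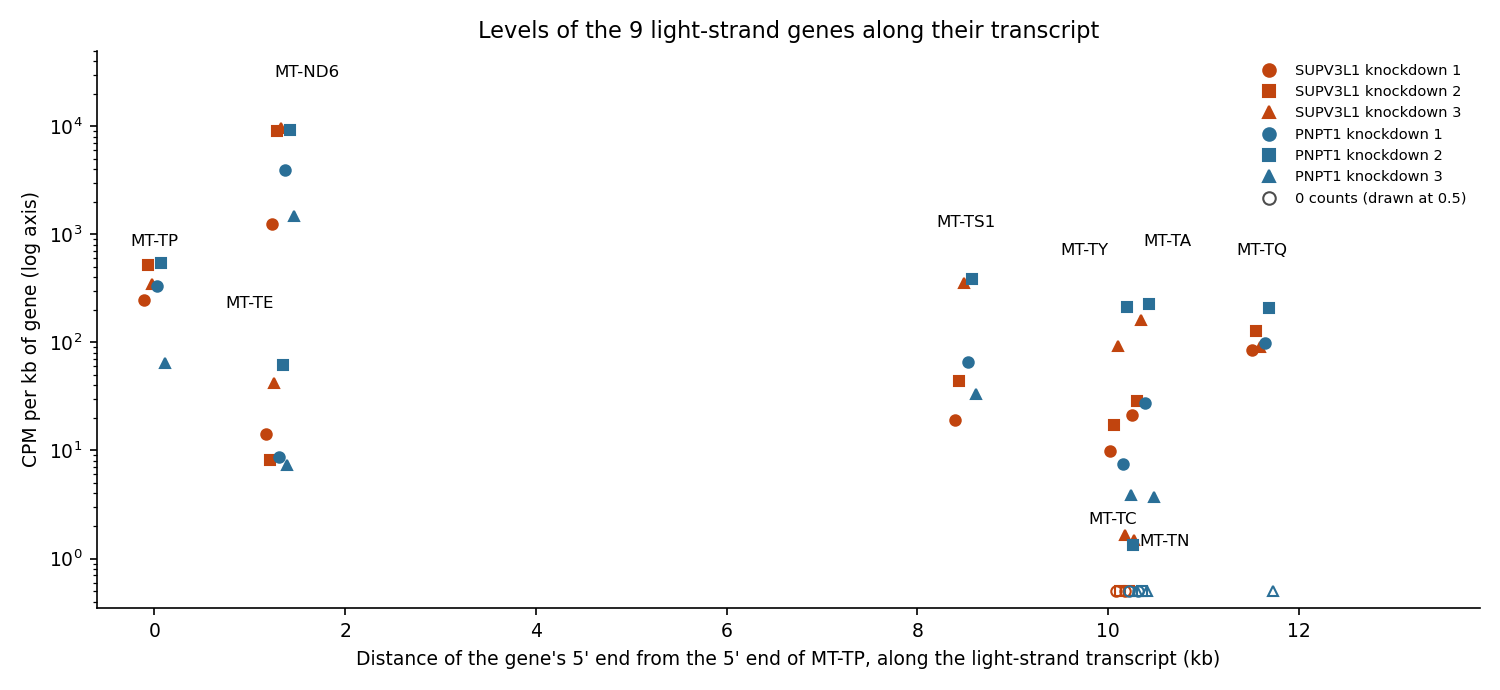
CPM per kilobase of gene (y axis, log scale) of the 9 light-strand genes against the distance of each gene's 5′ end from the 5′ end of MT-TP in kilobases (x axis), with 1 point per library, spread slightly sideways so that they can be told apart, and open points for 0 counts drawn at 0.5. MT-ND6 is the highest in every library, and MT-TC and MT-TN lie at or near 0 counts between MT-TY and MT-TA.

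The deposited FPKM table gave another order of the tRNA genes. MT-TS1 reached 1265, 556 and 7419 FPKM in SUPV3L1 knockdown, against 1667, 4735 and 361 FPKM in PNPT1 knockdown. MT-ND6 had 857, 5422 and 5807 FPKM in SUPV3L1 knockdown, against 2790, 5920 and 608 FPKM in PNPT1 knockdown, so MT-TS1 lay above it in 2 of 6 libraries. MT-TN, with 1 count in all, was given 2.24, 15.3 and 29.9 FPKM in SUPV3L1 knockdown, against 890, 56.5 and 0 FPKM in PNPT1 knockdown. MT-TP, the tRNA gene with the most counts, was given no more than 114 FPKM in any library, and its mean of 72.4 FPKM was the lowest of the 8. The 2 units thus ranked the short genes differently, and the labels do not state which of the named tools made the FPKM values. The strand check above covers the counts, and whether the FPKM values separate the strands was not tested.

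Counts per FPKM and kilobase measured this gap. MT-ND6 had 16.3, somewhat above all 12 heavy-strand mRNA genes, which had 6.42 to 13.7 with a median of 12.05. MT-TP had 49.6, MT-TQ 7.57, MT-TA 4.46, MT-TY 0.770, MT-TS1 0.574, MT-TE 0.356, MT-TC 0.0544 and MT-TN 0.0138. The 5 tRNA genes within 1 base of another light-strand gene ranged from 0.0138 to 4.46, and the 3 that stand alone from 0.574 to 49.6, so the sets overlapped at MT-TS1. All 14 heavy-strand tRNA genes lie within 1 base of a gene on their strand, and 8 of them had 0 counts in every library while they were given a mean of 9.45 to 367 FPKM. Reads that reach from a tRNA gene into its neighbour can be counted for neither, and the part this plays in the values was not tested.

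**Figure D3:**
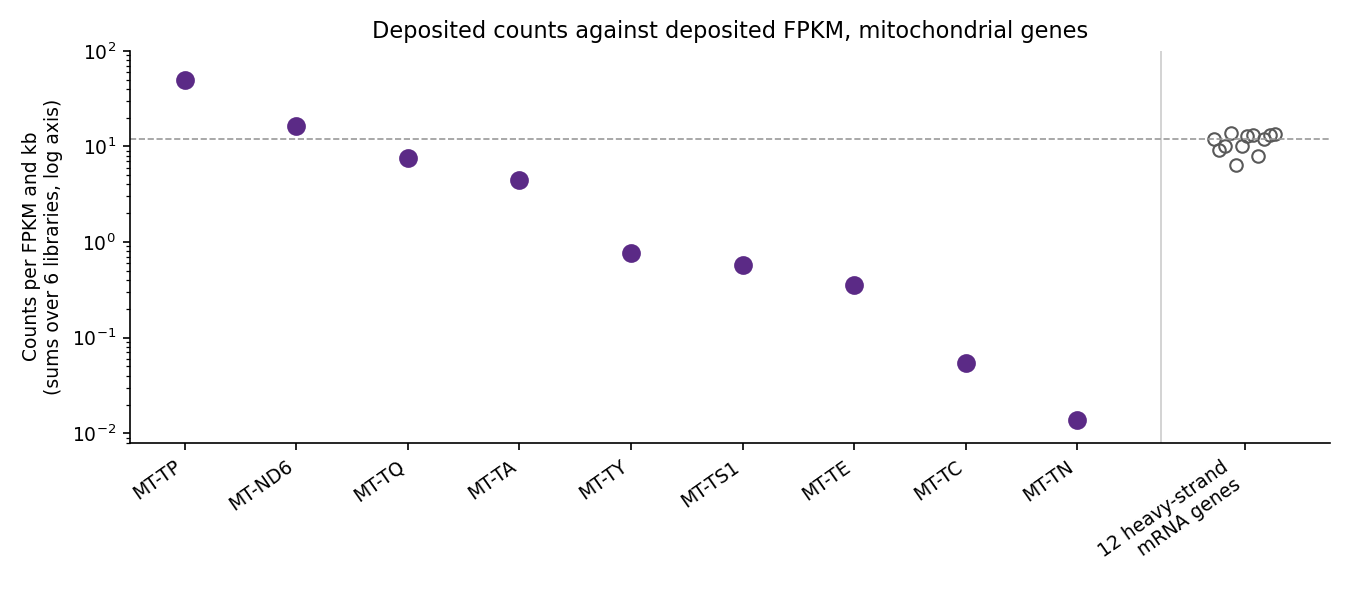
Counts per FPKM and kilobase of gene, from sums over the 6 libraries (y axis, log scale), for each light-strand gene and for the 12 heavy-strand mRNA genes as open points at the right, whose median of 12.05 is the dashed line. MT-ND6 lies near that line but above the open points, MT-TP higher at 49.6, and MT-TN lowest at 0.0138.

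To set the strands against each other within a library, MT-ND6 was compared with the heavy-strand mRNA genes on either side of it, MT-ND5 and MT-CYB, which encode subunits of complexes I and III. MT-ND6 had 0.154, 1.35 and 0.242 counts per MT-ND5 count in SUPV3L1 knockdown, against 0.204, 0.645 and 0.195 in PNPT1 knockdown. It had 0.190, 1.46 and 0.652 counts per MT-CYB count in SUPV3L1 knockdown, against 0.398, 1.11 and 0.380 in PNPT1 knockdown. Library 2 was the highest of its group in each case, and in SUPV3L1 knockdown library 2 MT-ND6 had more counts than either neighbour, although it is shorter than both. The groups overlapped: the mean log2 ratio was higher in SUPV3L1 knockdown by 0.32 for MT-ND5, with an exact permutation p of 0.8, and by 0.038 for MT-CYB, with an exact permutation p of 1. MT-TE had 1.56, 0.130 and 0.594 counts per 1000 MT-ND6 counts in SUPV3L1 knockdown, against 0.316, 0.898 and 0.816 in PNPT1 knockdown, a log2 difference of -0.32 with an exact permutation p of 0.8. The tests were two-sided, 3 libraries against 3 cannot give a p below 0.1, and the Benjamini-Hochberg adjusted p was 1 for each of the 3 ratios.

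MT-TQ and MT-TP each face a heavy-strand tRNA gene, and these pairs were looked at after their values were seen and are given without a test. MT-TQ overlaps MT-TI, the isoleucine tRNA gene, by 3 bases, and had 0.6, 0.522 and 0.484 counts per MT-TI count in SUPV3L1 knockdown, against 1.22 and 1.77 in PNPT1 knockdown libraries 1 and 2. PNPT1 knockdown library 3 had 0 counts of either gene. MT-TP lies 2 bases from MT-TT, the threonine tRNA gene, and had 5.26, 6.76 and 2.32 counts per MT-TT count in SUPV3L1 knockdown, against 10.4 and 15.7 in PNPT1 knockdown libraries 1 and 2, and 17 counts to 0 in library 3. In counts, the groups did not overlap for either pair among libraries with counts of both genes. In the deposited FPKM they overlapped: MT-TQ to MT-TI was 1.136, 0.959 and 1.143 in SUPV3L1 knockdown, against 1.11, 1.15 and 0 in PNPT1 knockdown, where MT-TQ was listed at 0 FPKM in library 3. MT-TP to MT-TT was 0.634, 0.776 and 0.699 in SUPV3L1 knockdown, against 0.792, 0.861 and 0.247 in PNPT1 knockdown. These FPKM ratios include PNPT1 knockdown library 3, which the count ratios leave out. Without that library the FPKM ratios still overlapped for MT-TQ to MT-TI and did not overlap for MT-TP to MT-TT. MT-TI and MT-TT were the only heavy-strand tRNA genes that passed the filter, with log2 fold changes of 1.45 and 1.90 and 0 called, against -0.068 for MT-TQ and 0.21 for MT-TP. Their unadjusted p was 0.104 and 0.0446 (edgeR quasi-likelihood). In CPM the groups stood apart for MT-TI and MT-TT and overlapped for MT-TQ and MT-TP. Other tRNA genes of the 2 strands also lie close. MT-TA, 7 bases from MT-TW, had 18, 21 and 103 counts to 5, 10 and 35 in SUPV3L1 knockdown. In PNPT1 knockdown these were 19, 178 and 1 to 8, 17 and 1, and the groups overlapped in this ratio. MT-TS1, 3 bases from MT-TD, had 16, 32 and 226 counts to 2, 4 and 0 in SUPV3L1 knockdown. In PNPT1 knockdown these were 46, 305 and 9 to 4, 8 and 0. Among libraries with counts of both, this ratio was lower in SUPV3L1 knockdown. That leaves out SUPV3L1 knockdown library 3, whose 226 to 0 lies in the other direction, so this pair does not separate the groups. Over all genes tested, the groups of 3 did not overlap in CPM for 8.56%, and 4.09% had an unadjusted p under 0.05. These shares are for single genes and are no background for the pair ratios. With 3 libraries against 2, or fewer, groups stand apart by chance more often than with 3 against 3.

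**Figure D4:**
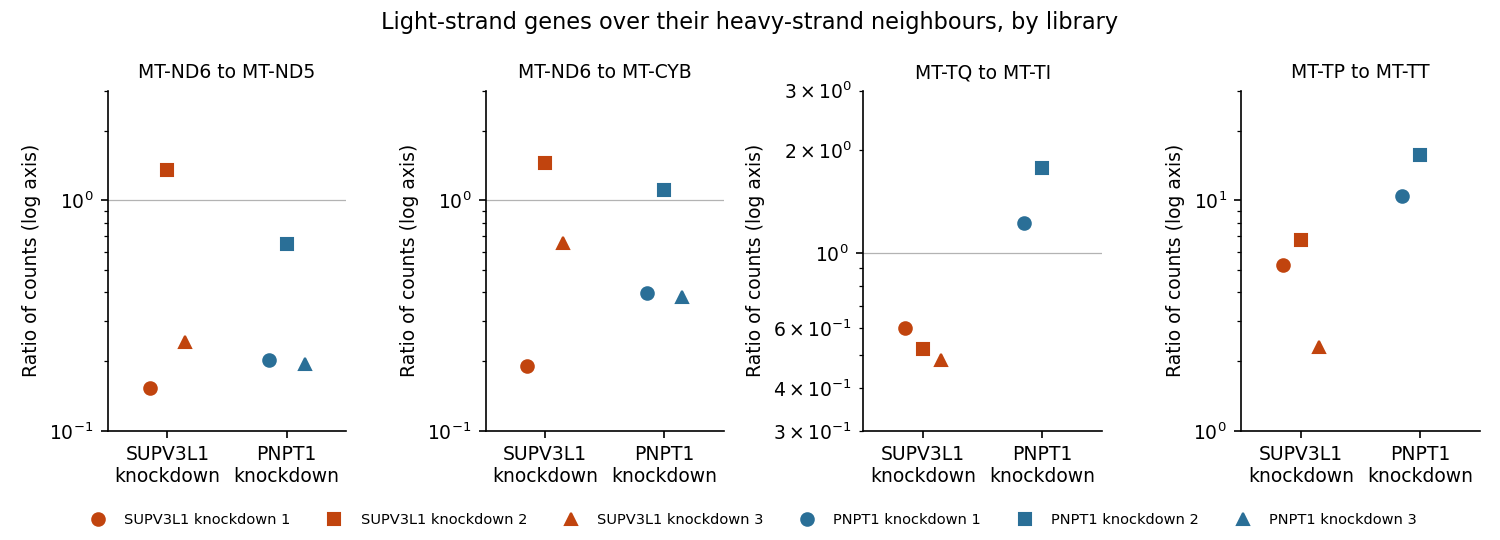
Counts of a light-strand gene per count of its heavy-strand neighbour (y axes, log scale), with 1 point per library and SUPV3L1 knockdown left of PNPT1 knockdown; the grey line marks equal counts, and PNPT1 knockdown library 3 has no point in the tRNA panels because MT-TI and MT-TT had 0 counts. In these counts the groups overlap for MT-ND6 and do not overlap for the tRNA pairs. The count ratios are 0.484 to 0.6 against 1.22 to 1.77 for MT-TQ and 2.32 to 6.76 against 10.4 to 15.7 for MT-TP. In FPKM, with PNPT1 knockdown library 3 included, the groups overlap for both tRNA pairs. Without that library they overlap in FPKM for MT-TQ only.

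Over all mitochondrial tRNA genes, the 8 light-strand genes held 65.5%, 66.4% and 73.2% of the counts in SUPV3L1 knockdown, against 78.2%, 89.7% and 96.8% in PNPT1 knockdown. The last value is 30 of 31 counts, with a Wilson 95% interval of 83.8% to 99.4%. The means were 68.4% ± 4.22 in SUPV3L1 knockdown, against 88.2% ± 9.36 in PNPT1 knockdown (SD, n = 3 each), the groups did not overlap, and no test was made of a share over genes chosen with results known. Over all genes tested, 8.56% had groups that did not overlap in CPM. Of the 957 heavy-strand tRNA counts, MT-TI held 591 and MT-TT 237, so the share largely restates the values of those 2 genes. With 8 of the 14 heavy-strand tRNA genes at 0 counts in every library, it also depends on which genes reads could be counted for. In FPKM the groups overlapped, with shares of 60.2%, 46.5% and 86.4% in SUPV3L1 knockdown, against 82.8%, 80.7% and 79.2% in PNPT1 knockdown. Whether the FPKM values separate the strands was not tested. Over all mitochondrial genes, the 9 light-strand genes held 0.214%, 1.501% and 1.19% in SUPV3L1 knockdown, against 1.16%, 2.03% and 0.468% in PNPT1 knockdown. These shares overlapped, with means of 0.970% ± 0.672 in SUPV3L1 knockdown, against 1.22% ± 0.782 in PNPT1 knockdown (SD, n = 3 each). Mitochondrial genes as a whole took 34.4%, 33.6% and 41.98% of assigned counts in SUPV3L1 knockdown, against 21.7%, 26.6% and 11.3% in PNPT1 knockdown. Most of these were counts of the 2 heavy-strand rRNA genes, with 13205814 over all libraries, against 3072126 for the heavy-strand mRNA genes and 186400 for the light-strand genes. The rRNA genes had log2 fold changes of 0.98 and 0.87, with groups that did not overlap and 0 called. Shares of mitochondrial counts, and scaling to them, thus rest mainly on rRNA. With mitochondrial counts in place of library size, all 7 genes tested were below 0, between -0.32 for MT-ND6 and -1.72 for MT-TY, with a smallest adjusted p of 0.172 (edgeR quasi-likelihood, Benjamini-Hochberg), and the median of all genes moved to -0.83. Relative to that median MT-ND6 was at 0.51, MT-TP at 0.32 and MT-TQ at 0.086, and the other 4 genes lay between -0.27 and -0.89.

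Among 8025 genes with a mean of at least 10 CPM, those whose log2 CPM followed MT-ND6 most closely over the 6 libraries were CELSR2, ERAP1, RP5-1039K5.19, LZTS2 and TMEM44, with Pearson's r of 0.974, 0.955, 0.954, 0.954 and 0.947. None of these is among the 37 mitochondrial genes. The closest mitochondrial genes at that mean level were MT-TS1, at rank 182 with r = 0.776, and MT-TP, at rank 189 with r = 0.771. The heavy-strand genes lay lower, with MT-ND1 at r = 0.636, MT-CYB at 0.608, MT-ND5 at 0.484 and MT-ND4 at 0.165. These likenesses were taken as the highest of many over 6 libraries and describe these libraries only.

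The nuclear genes that make, cut, charge or degrade light-strand RNA were followed in 4 lists, and all 28 genes passed the filter. The targeted genes come first. SUPV3L1 itself had 12.2, 12.3 and 9.42 CPM in SUPV3L1 knockdown, against 11.5, 18.2 and 25.8 CPM in PNPT1 knockdown, with a log2 fold change of -0.70 ± 0.39. PNPT1 had 36.3, 27.6 and 21.4 CPM in SUPV3L1 knockdown, against 7.66, 18.9 and 17.1 CPM in PNPT1 knockdown, with a log2 fold change of 0.97 ± 0.41. Both had an adjusted p of 0.898 by edgeR (quasi-likelihood test, Benjamini-Hochberg adjustment). PNPT1 separated the groups in the direction of the labels, while the groups overlapped for SUPV3L1 at PNPT1 knockdown library 1. These are levels in J2-bound RNA, and a bulk library cannot tell fewer cells with an RNA from less RNA per cell.

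Of the 28 genes, 21 had log2 fold changes above 0 and 7 below 0, with a median of 0.21, 0 called, 1 with an unadjusted p under 0.05, which was PNPT1, and 3 with groups that did not overlap, PNPT1 among them, against 4.09% and 8.56% of all genes tested. Scaled to mitochondrial counts, 23 of 28 were below 0 and 21 of 28 above the median of all genes. Without PNPT1 knockdown library 1 the median was 0.092, with 19 of 28 above 0 and 15 of 28 above the median of all genes. The list of tRNA excision and end-processing genes, with FASTK, which binds MT-ND6 mRNA, had 6 of 6 above 0 and a median of 0.57. When scaled to mitochondrial counts, 2 of these 6 were above 0 and 6 of 6 above the median of all genes. Without PNPT1 knockdown library 1, 4 of 6 were above 0. The transcription genes had 4 of 5 above 0, the genes of mitochondrial RNA decay and stability 3 of 7, and the enzymes that charge the light-strand tRNAs 8 of 10. Among them EARS2, which charges the glutamate tRNA, averaged 25.2 ± 3.97 CPM in SUPV3L1 knockdown, against 13.8 ± 7.81 CPM in PNPT1 knockdown (SD, n = 3 each). TRNT1, which adds CCA to tRNA ends, averaged 19.7 ± 2.62 CPM in SUPV3L1 knockdown, against 11.7 ± 6.44 CPM in PNPT1 knockdown. PRORP, the nuclease of mitochondrial RNase P, named KIAA0391 in the files, averaged 8.43 ± 1.92 CPM in SUPV3L1 knockdown, against 4.59 ± 2.34 CPM in PNPT1 knockdown. Leaving the targeted genes aside, these 3 had the smallest p of the lists, with an adjusted p of 0.898 each (edgeR quasi-likelihood, Benjamini-Hochberg) and log2 fold changes of 0.86 ± 0.42, 0.74 ± 0.42 and 0.84 ± 0.50.

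Library depth and structure bear on all of these values. Counts assigned to genes ranged from 5852090 in PNPT1 knockdown library 3 to 11361371 in SUPV3L1 knockdown library 1, and PNPT1 knockdown library 3 also had the highest share of alignments that were not unique, at 80.1% against 65.7% to 71.6% in the other libraries, and the lowest TMM factor, 0.669. The 2 most alike libraries by log2 CPM came from different knockdowns, SUPV3L1 knockdown library 2 and PNPT1 knockdown library 2, with r = 0.973 over genes. Of 8 markers of myeloid leukaemia cells 7 passed the filter, all but ANPEP, and the 8 summed to 494 to 874 CPM. PTPRC gave the largest part of this sum, at 282 to 607 CPM, while MPO had 0.822 to 7.07 CPM. HOXA9 had 77.8 CPM in PNPT1 knockdown library 3, against 6.55 to 15.1 CPM in the other libraries. Of 8 markers of other cells 0 passed, MS4A1, HBB and EPCAM had 0 counts in every library, and the 8 summed to no more than 0.995 CPM.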

How the data were processed

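RNA bound by the J2 antibody was sequenced in 6 libraries, 3 per knockdown, grouped by the genotype label and numbered in accession order. Per the submitters' processing notes, the authors used HISAT2 2.2.1, SAMtools 1.14, StringTie 2.1.4 and HTSeq on GRCh38; the HTSeq version, its settings and the gene annotation were not given in the sources used here. The deposited files hold whole-number read counts per gene, with 5 summary lines kept out of all sums, and the deposited series table holds FPKM values. In each library 65.7% to 80.1% of alignments were not unique and 8.59% to 15.0% met no gene. Reads from the nuclear copies of mitochondrial DNA may be among the former.

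Counts were tested with edgeR 4.0.16 (R 4.3.3; TMM; default filter, minimum count 10 and total 15), fitted to all 6 libraries and tested on simulated data. The simulation used large changes in well-counted genes and the same spread for every gene. It therefore does not show how well changes are found in genes with few counts or a wide spread. P-values were adjusted over 13275 genes at a threshold of 0.05. Ratios, with 0.5 added to counts, were tested by exact permutation (SciPy 1.17.1). DESeq2 1.42.0, limma 3.58.1 on log2(FPKM + 0.1) or log2(FPKM + 1), other scalings, other filters and each library left out were alternatives. Intervals and limits for 0 cover counting error only. Assigned counts were 5852090 to 11361371 per library.

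The members, lists and tests were chosen with earlier results of these data known. Genes named are the members, MT-ND5, MT-CYB, heavy-strand tRNA genes over the filter, the targeted genes with the 3 other factors of smallest p, and the 5 genes most like MT-ND6 by Pearson's r of log2 CPM (0.5 added). MT-ND1, MT-ND4, MT-TW and MT-TD were named after their values were seen. GENCODE 29 (GRCh38) holds 57055 of the 60675 identifiers and gave positions and sequences.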

Additional observations from a re-analysis of the deposited data

How the results depend on the processing

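No light-strand gene was called under any alternative; DESeq2 gave no p for MT-TY. Genes called over the whole table numbered 0 with RLE factors, library totals, mitochondrial counts as library size, the 50-count filter, which left MT-ND6, MT-TP and MT-TQ, and either FPKM pseudocount. DESeq2 called 18 and the fit without a filter 187, and the cause was not tested. Leaving out each library gave 0 to 1 genes, and 1 without SUPV3L1 knockdown library 2. With mitochondrial counts as library size MT-ND6 was at -0.32 and MT-TP at -0.51. On log2(FPKM + 0.1), MT-TQ was at 3.76, MT-TA at 1.66, MT-TY at 2.86, MT-TS1 at 0.29 and MT-TE at 0.58; on log2(FPKM + 1) these were 2.65, 0.57, 2.83, 0.29 and 0.58. The cause was not tested. Leaving out each library gave ranges of 0.0081 to 1.28 for MT-ND6, -0.61 to 0.90 for MT-TQ, -1.80 to 1.98 for MT-TA, -2.49 to 2.61 for MT-TY, -2.39 to 1.41 for MT-TS1, -1.26 to 0.030 for MT-TE and -0.26 to 0.84 for MT-TP. The log2 ratio differences ranged from -0.61 to 0.96 (MT-ND6 to MT-ND5), -0.65 to 0.82 (MT-ND6 to MT-CYB) and -1.14 to 0.65 (MT-TE to MT-ND6); the last was 0.11 with FPKM. The share of MT-TP, MT-TE and MT-ND6 differed by -0.0631 percentage points, by -5.61 with FPKM and by -0.373 to 0.191 with libraries left out. The light-strand share of mitochondrial counts differed by -0.249 points (-0.624 to 0.156; -0.823 with FPKM, -0.645 with counts per kilobase), and that of mitochondrial tRNA counts by -19.8 points (-24.8 to -15.6; -16.5 with FPKM, where the groups overlapped). The FPKM values of the tRNA pairs and the heavy-strand and factor lists under each setting were added after seeing the data. No paired analysis was possible because replicate numbers follow accession order and pair no libraries. Few counts limit MT-TN and MT-TC, where depth and the assignment of reads were not told apart, and PNPT1 knockdown library 3, with 30 light-strand tRNA counts.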
